A study of Homo sapiens with 6 samples.

Results

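The genes described here encode the enzymes that remove methyl groups from histone lysines (the erasers) or add them (the writers). They are the rows of the count tables whose Ensembl identifier carries the symbol of 1 of 45 listed genes, 15 erasers and 30 writers, out of 63677 identifiers in all. All 45 were found, and 44 passed the filter on low counts, the exception being KMT2B. The RNA came from SW480, an established line of human colorectal cancer cells grown in Leibovitz's L-15 medium. In the first group the cells carried a doxycycline-inducible lentiviral vector for GFP. In the second the same type of vector drove POU5F1B, a retrogene copy of the pluripotency gene POU5F1. The study describes both GFP and POU5F1B as HA-tagged in SW480 cells. Cells of both groups had been transduced, selected with puromycin and kept for 72 hours with doxycycline at 1 µg/mL, so neither group is an untreated line. Each group had 3 libraries of polyA RNA. The sources used here do not say whether the replicates came from separate transductions or cultures, and p-values then measure only the spread between these libraries.

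Methyl groups on histone H3 and H4 lysines mark the state of chromatin. H3K4 methylation is found at active promoters and enhancers, H3K36 methylation along transcribed genes, and H3K27 and H3K9 methylation at silenced genes and heterochromatin. Most catalytic writers carry a SET domain, DOT1L being an exception, and EED and SUZ12 are subunits that the catalytic EZH2 and EZH1 need, while erasers are either flavin-dependent amine oxidases (KDM1A and KDM1B) or JmjC dioxygenases that need iron, 2-oxoglutarate and oxygen. Mutation or altered dosage of several of these enzymes, such as EZH2, KMT2C and KMT2D, is known from many cancers. KDM7A, a JmjC enzyme with a PHD finger that reads H3K4me3, removes dimethyl marks from H3K9 and H3K27.

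Promoter sequence was looked up because POU proteins bind the octamer ATGCAAAT and because some JmjC genes are known to respond to hypoxia through the core motifs ACGTG and GCGTG. The study, however, found POU5F1B mostly in the cytoplasm and enriched in membranes. Its chromatin immunoprecipitation did not detect significant recruitment of POU5F1B to the genome. Promoters (250 bases before to 50 after a RefSeq start, GRCh38.p14) were available for 41 of the 45 genes, 15 erasers with 22 promoters and 26 writers with 37. On either strand, the octamer was present in 1 of the 22 eraser promoters (4.55%) and in 0 of the 37 writer promoters, against 1.77% of all 35116 promoters of this length. The single match was in 1 of the 3 JMJD1C promoters. ACGTG was found in 27.3% of eraser and 21.6% of writer promoters, against 21.4% of all. GCGTG was found in 63.6% and 70.3%, against 36.5% of all. The background was not matched for GC content, and overlapping promoters of 1 gene were counted apart. The higher share is therefore not read as a trait of these enzymes. The KDM7A promoter (GRCh38.p14, chr7:140176934-140177233, minus strand) has a GC content of 77.0%, held no octamer, and matched ACGTG and GCGTG at 1 place each. It is shown because KDM7A is the member with the clearest difference, and the JMJD1C promoter (GRCh38.p14, chr10:63269194-63269493, minus strand) because it alone held the octamer. Capitals mark the matches to the 3 motifs, on either strand, and a match is a run of letters, not a shown binding site.
KDM7A promoter: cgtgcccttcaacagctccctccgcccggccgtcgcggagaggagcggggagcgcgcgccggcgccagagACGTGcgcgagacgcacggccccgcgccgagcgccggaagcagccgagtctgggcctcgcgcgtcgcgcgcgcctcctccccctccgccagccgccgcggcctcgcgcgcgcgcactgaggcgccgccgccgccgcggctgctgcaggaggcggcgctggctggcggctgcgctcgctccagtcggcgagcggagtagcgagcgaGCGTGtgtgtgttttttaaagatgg
JMJD1C promoter: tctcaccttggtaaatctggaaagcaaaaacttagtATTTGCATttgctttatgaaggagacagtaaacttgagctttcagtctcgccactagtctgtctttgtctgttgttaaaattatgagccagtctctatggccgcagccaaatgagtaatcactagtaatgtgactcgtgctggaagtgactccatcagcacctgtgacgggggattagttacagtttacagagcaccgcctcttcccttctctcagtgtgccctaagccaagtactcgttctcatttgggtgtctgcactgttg

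Libraries held 10767947 to 12787637 counts. POU5F1B itself had 6, 5 and 1 counts across GFP replicates 1, 2 and 3, and 15027, 11393 and 1458 in the POU5F1B libraries, so the labels held, and POU5F1B replicate 3 carried 9.06 times fewer counts than the mean of the other two. GFP replicate 3 stood apart from the other libraries, with a sample quality weight of 0.111 against 0.575 to 2.79. Of 10 colon epithelial markers 8 passed the filter, KRT8 and KRT18 with at least 35126 counts in each library, whereas CDX1 had at most 2 counts. The replicate 3 libraries of both groups held marker transcripts that the other libraries lacked. LGR5, an intestinal stem cell marker, had 239 counts in GFP replicate 3 and 79 in POU5F1B replicate 3, against 0 or 1 elsewhere, and ALB, a liver gene, had 43 and 37 against 0 elsewhere. Summed over the 10 epithelial markers, GFP libraries had 6367 to 9614 CPM and POU5F1B libraries 7909 to 8945 CPM. Of 9 markers of blood, endothelium, fibroblasts and liver, COL1A1 alone passed the filter, with 141.6, 118.3 and 16.9 CPM in GFP replicates 1, 2 and 3 against 6.76, 5.56 and 9.49 CPM with POU5F1B, while PTPRC, CD3E, CDH5 and DCN had at most 3 counts per library and COL3A1 0. CDH1, the epithelial cadherin, had 33.7, 30.2 and 72.7 CPM with GFP and 164.0, 158.6 and 98.3 CPM with POU5F1B, without overlap. What sets the replicate 3 libraries apart, and its part in the values below, was not tested. Results are given with and without these libraries for many of the enzymes that moved with them. Values given only with all libraries may also rest on them. In bulk RNA, fewer cells that express a gene and less RNA per cell cannot be told apart.

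To ask whether writers or erasers differed between POU5F1B and GFP cells, each gene was read from 1 fit across all 14286 tested genes. Levels are read counts scaled to library size by TMM (CPM), fold changes are on the log2 scale, and the threshold was an adjusted p under 0.05 together with a fold change above 2. With limma voom and all 6 libraries, 0 of 15 erasers and 0 of 29 writers passed, as did 0 of all genes (0.0%). At an unadjusted p under 0.05, 7 of the 44 enzymes (15.9%) were lower in POU5F1B cells, against 5.82% of all genes, and 1 (PRDM16) was higher, against 6.07%. The edgeR quasi-likelihood test also gave 0 calls, with 9 lower and 1 higher at an unadjusted p under 0.05. The edgeR background at that unadjusted p was 6.11% lower and 5.93% higher. DESeq2 gave 1 call, KMT2E, among the lower (1 of 44, against 1.04% of all genes) and 0 among the higher (against 0.581%). Without the fold limit, DESeq2 had 4 of 44 lower (KDM7A, EZH2, KMT2E and NSD1, against 1.58%) and 0 higher (against 1.3%).

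The groups of 3 libraries did not overlap for 10 enzymes. All POU5F1B libraries were lower than all GFP libraries for 5 of 15 erasers and 4 of 29 writers, which is 9 of 44 (20.5%) against 9.24% of all genes. All were higher for 1 of 44, PRDM16, against 10.2% of all genes. The median log2 fold change was -0.092 for erasers, with 11 of 15 lower, and -0.20 for writers, with 20 of 29 lower, against -0.023 for all genes, of which 53.1% were lower. With replicates 1 and 2 only, the eraser median was -0.26, with 11 of 15 lower, and that of the writers moved to 0.0033, with 14 of 29 lower. The median of all genes was then -0.0050, with 7218 of 14286 lower. In that fit 12 of 44 enzymes were lower at an adjusted p under 0.05 (27.3%, against 15.5% of all genes), 6 erasers and 6 writers, and 3 were higher (KDM1B, EED and PRDM16, against 14.1%). With the fold limit 0 were lower (against 5.15%) and 1, PRDM16, was higher (against 3.21%). Without GFP replicate 3, 0 were lower (against 2.78%) and PRDM16 was again the 1 higher (against 1.39%). Leaving out both replicate 3 libraries thus removed the lower median of the writers and not that of the erasers.

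**Figure D1:**
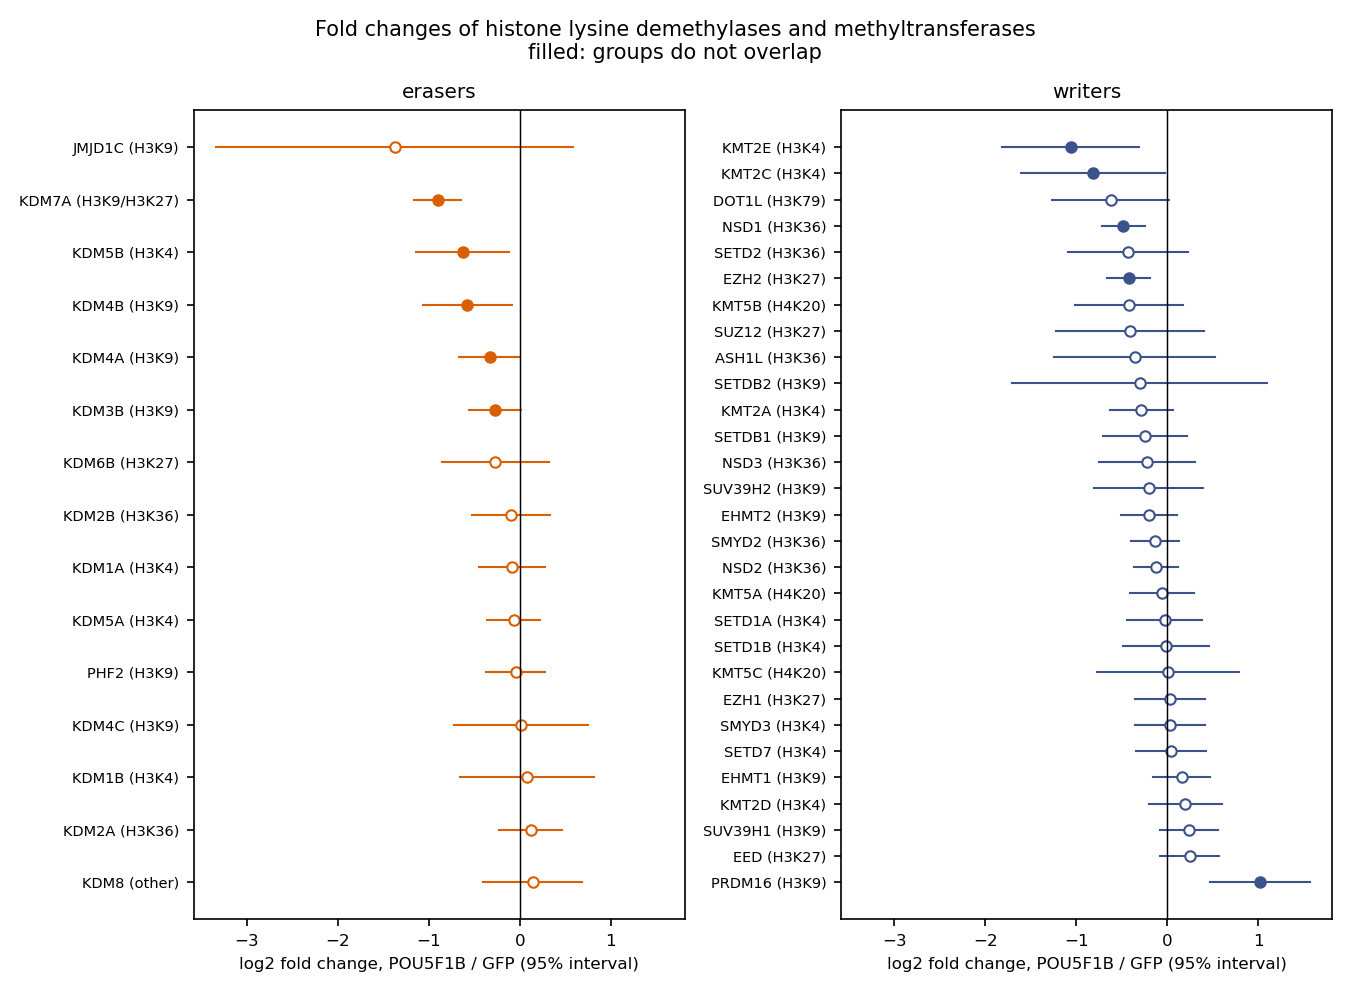
Log2 fold change (POU5F1B over GFP, limma voom, 3 libraries per group) of 15 erasers and 29 writers with its 95% interval, with the main histone substrate in brackets and filled points where the groups did not overlap. JMJD1C has the lowest value of the erasers with the widest interval (-3.34 to 0.59), whereas that of KDM7A is narrow (-1.16 to -0.65), and PRDM16 stands alone on the right.

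KDM7A (ENSG00000006459) lies on the minus strand of chromosome 7 at 139784546 to 139876783 (GRCh37), and no other annotated gene of the tables shares its exons. It had 980, 1143 and 1008 counts across GFP replicates 1, 2 and 3, and 572, 486 and 568 in POU5F1B replicates 1, 2 and 3. On the CPM scale these were 82.6, 87.1 and 87.7 against 45.0, 45.0 and 47.3. The replicates of each group lay close together and the groups were far apart, averaging 85.8 ± 2.81 CPM under GFP and 45.8 ± 1.31 CPM under POU5F1B (SD, n = 3). KDM7A was therefore 1.87-fold lower, a log2 fold change of -0.91 ± 0.11 (SE) with a 95% interval of -1.16 to -0.65. By p it had rank 9 of 14286 genes, and limma voom gave an adjusted p of 0.132. The fold stayed under 2 in each setting, so KDM7A never passed the full threshold. The adjusted p of KDM7A was under 0.05 with DESeq2 (2.89e-11), with sample quality weights (limma voom, 0.000389), with replicates 1 and 2 only (limma voom, 3.29e-05) and without GFP replicate 3 (limma voom, 0.00405). It was 0.106 with edgeR and 0.0938 to 0.927 with limma voom when any 1 of the other 5 libraries was left out, while the log2 fold change of these fits stayed between -0.93 and -0.88. Neither of the libraries that stood apart moved its level. GFP replicate 3 exceeded the mean of GFP replicates 1 and 2 by 0.049 in log2 CPM, and POU5F1B replicate 3, with the least POU5F1B, had a KDM7A level of 47.3 CPM, close to its fellow replicates.

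**Figure D2:**
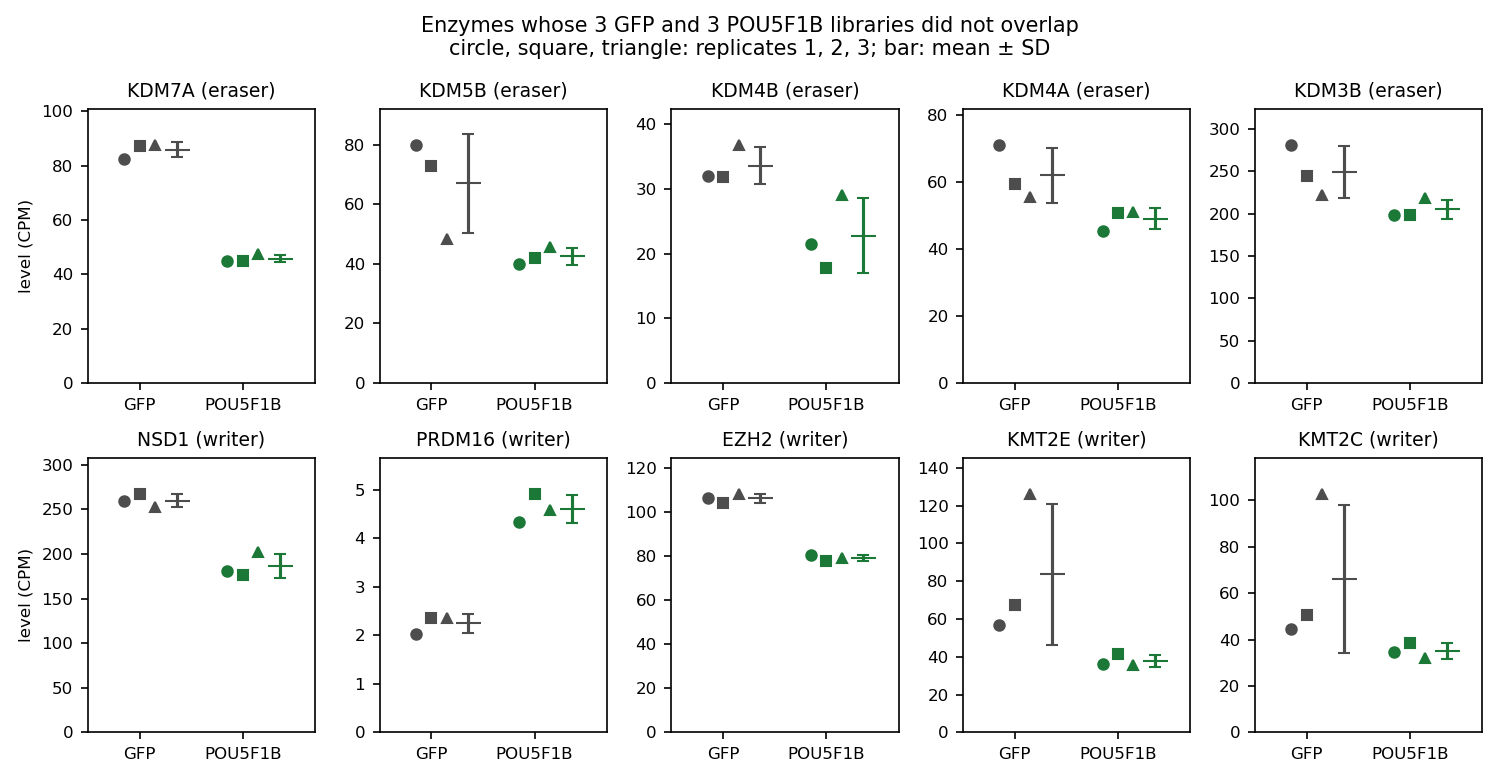
Level in CPM (linear axis from 0) of the 10 enzymes whose groups did not overlap, with circles, squares and triangles for replicates 1, 2 and 3, grey for GFP, green for POU5F1B, and bars for mean ± SD (n = 3). KDM7A, EZH2 and PRDM16 show tight replicates in both groups, while KMT2E and KMT2C have a high GFP replicate 3 (126.2 and 102.7 CPM).

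PHF2, the other KDM7-family member of the list, averaged 75.2 ± 9.29 CPM under GFP and 72.5 ± 5.31 CPM under POU5F1B (SD, n = 3). Its log2 fold change was -0.047, with a 95% interval of -0.37 to 0.28. The groups overlapped, and a difference of the size seen for KDM7A lies outside this interval.

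Of the 6 erasers listed for H3K9 alone, PHF2 included, 3 had non-overlapping groups, each lower in POU5F1B cells (9.24% of all genes were). KDM4B, a demethylase of H3K9me3, had 32.0, 31.8 and 36.9 CPM in GFP replicates 1, 2 and 3 against 21.5, 17.8 and 29.1 CPM in the POU5F1B libraries, or -0.58 ± 0.20 (SE) in log2, for which limma voom gave an adjusted p of 0.353. POU5F1B replicate 3 was the closest to the GFP range. KDM4A, which acts on H3K9me3 and H3K36me3, had 71.1, 59.3 and 55.5 CPM against 45.4, 50.7 and 51.1 CPM (-0.33 ± 0.14 SE in log2, adjusted p 0.426 with limma voom). An antisense gene covers 9.12% of its exon length, and since the strand setting of the counting was not stated, its counts may include antisense reads. Larger shares were covered on the opposite strand in SUV39H1 (21.2%), KDM8 (14.5%), SETDB1 (12.9%) and DOT1L (11.3%). For KMT5C, 18.6% of the exon length was shared with a gene on the same strand. KDM3B, which acts on lower H3K9 methylation states, had 281.7, 244.0 and 222.0 CPM against 199.0, 198.9 and 218.5 CPM. The replicate 3 libraries nearly met, and the difference of -0.27 ± 0.12 (SE) in log2 came with an adjusted p of 0.437 from limma voom. With replicates 1 and 2 only, all 3 had an adjusted p under 0.05 (limma voom, 0.00262, 0.0139 and 0.00399 for KDM4B, KDM4A and KDM3B).

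JMJD1C, a KDM3-family protein, had 93, 191 and 763 counts across the GFP replicates, against 80, 113 and 77 with POU5F1B. Only GFP replicate 3 was high, and the log2 fold change of -1.38 ± 0.83 (SE) went to -0.44 with replicates 1 and 2 only. KDM4C spanned 21.3 to 47.2 CPM under GFP and 26.3 to 33.4 CPM under POU5F1B, with GFP replicate 3 again the highest, and its fold change in log2 was 0.0091 ± 0.31 (SE).

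The H3K4 erasers were split. KDM5B, a JmjC demethylase of H3K4me3, had 80.0, 72.8 and 48.2 CPM in GFP replicates 1, 2 and 3 against 39.9, 41.9 and 45.7 CPM in the POU5F1B libraries. Replicate 3 of GFP was close to the POU5F1B range, although the groups did not overlap. The log2 fold change was -0.63 ± 0.22 (SE, limma voom adjusted p = 0.344) and reached -0.91 with replicates 1 and 2 only (limma voom adjusted p = 6.43e-05). Its paralog KDM5A had 90.7 ± 1.65 and 86.8 ± 9.17 CPM (SD, n = 3), a log2 fold change of -0.069 with an interval of -0.36 to 0.22. KDM1A, the LSD1 subunit of the CoREST complex, was the most abundant eraser per length and overlapped between groups (-0.086 ± 0.15 SE). KDM1B spanned 26.2 to 58.7 CPM under GFP and 33.7 to 38.9 CPM under POU5F1B, with a fold change in log2 of 0.079 ± 0.31 (SE). In replicates 1 and 2 alone it was 0.39 higher (limma voom adjusted p = 0.0393), the only eraser higher at that level.

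The groups of the remaining erasers overlapped. KDM6B, which removes H3K27me3, spanned 32.2 to 40.5 CPM under GFP and 22.3 to 42.9 CPM under POU5F1B (-0.27 ± 0.25 SE), and was at -0.46 with replicates 1 and 2 only (limma voom adjusted p = 0.0328). The H3K36 erasers KDM2A and KDM2B, which bind unmethylated CpG islands through a CXXC domain, had log2 fold changes of 0.12 ± 0.15 and -0.092 ± 0.18 (SE). KDM8, a JmjC protein with 30 to 39 counts per library, had 0.14 ± 0.23 (SE).

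In PRC2, the complex that writes H3K27 methylation, EZH2 alone of 4 listed members had groups that did not overlap. Of all genes, 9.24% were lower and 10.2% higher without overlap. EZH2 (ENSG00000106462), the main catalytic subunit, lies on chromosome 7 at 148504349 to 148581413 (GRCh37, minus strand). It had 106.2, 104.1 and 108.2 CPM in GFP replicates 1, 2 and 3 against 80.6, 77.8 and 79.1 CPM in the POU5F1B libraries. The gap between the groups was many times their SD of 2.05 and 1.42 CPM, and the log2 fold change was -0.42 ± 0.099 (SE). Its limma voom adjusted p was 0.230 with all libraries and 0.00404 with replicates 1 and 2 only, and DESeq2 gave 0.00693. EED, the core subunit that binds H3K27me3, averaged 50.8 ± 4.42 CPM under GFP and 60.2 ± 5.61 CPM under POU5F1B (SD, n = 3), a log2 fold change of 0.25 with an interval of -0.075 to 0.57. EZH1, the alternative catalytic subunit, had 0.030 ± 0.16 (SE). SUZ12, the core scaffold, spanned 57.9 to 123.6 CPM under GFP and 42.8 to 80.3 CPM under POU5F1B, so its groups overlapped.

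Among H3K36 writers, NSD1 alone of 6 had groups that did not overlap (9.24% of all genes were lower and 10.2% higher without overlap). NSD1 (ENSG00000165671), an H3K36me2 writer on chromosome 5 at 176558831 to 176727214 (GRCh37), had 259.1, 267.4 and 252.9 CPM in GFP replicates 1, 2 and 3 against 181.4, 176.3 and 202.2 CPM in the POU5F1B libraries. The 3 GFP libraries lay close together and well above the POU5F1B libraries, of which replicate 3 was the highest. The log2 fold change was -0.48 ± 0.10 (SE), and limma voom put its adjusted p at 0.207 with every library and at 0.000171 with replicates 1 and 2 only, and DESeq2 gave 0.00685. NSD2 had 282.4 ± 22.5 and 258.5 ± 4.92 CPM (SD, n = 3), which is a log2 fold change of -0.12 with an interval of -0.36 to 0.12. NSD3, SETD2 (the H3K36me3 writer) and ASH1L had log2 fold changes of -0.22, -0.43 and -0.36, and those of replicates 1 and 2 only were 0.090, 0.017 and 0.22. SMYD2, a SET and MYND enzyme, had -0.14 ± 0.11 (SE). All 6 H3K36 writers were below 0 with all libraries, and 3 of 6 with replicates 1 and 2 only.

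With all libraries, KMT2E and KMT2C, a pair of MLL-family genes on chromosome 7 listed as H3K4 writers, had the lowest fold changes among writers. With replicates 1 and 2 only, DOT1L (-0.79) was below KMT2E (-0.70), and NSD1 (-0.57) and EZH2 (-0.42) were below KMT2C (-0.40). KMT2E, an MLL-family reader of H3K4me3 without shown enzyme activity, had 57.0, 67.7 and 126.2 CPM in GFP replicates 1, 2 and 3 against 36.3, 41.3 and 35.5 CPM in the POU5F1B libraries. Each GFP library was above each POU5F1B library, and GFP replicate 3 was the highest. The log2 fold change was -1.06 ± 0.32 (SE, limma voom adjusted p = 0.300), a 2.09-fold difference, and -0.70 with replicates 1 and 2 only (limma voom adjusted p = 0.00111). DESeq2 gave -1.14 with an adjusted p of 0.0213. KMT2C, a writer of H3K4me1 at enhancers, had 44.7, 50.6 and 102.7 CPM against 34.7, 38.6 and 31.9 CPM. Here the gap between the lowest GFP and the highest POU5F1B library was small, and GFP replicate 3 stood far above the rest. Its log2 fold change of -0.81 ± 0.33 (SE) was -0.40 with replicates 1 and 2 only (limma voom adjusted p = 0.411 and 0.0254). Genes on the opposite strand, among them KMT2E-AS1 and SRPK2, cover 4.17% of the KMT2E exon length. Parts of KMT2C have near-identical copies elsewhere in the genome, whose reads are lost when only uniquely mapped reads are counted.

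The other H3K4 writers did not separate. KMT2D, the paralog of KMT2C, had 152.0 ± 29.4 and 172.9 ± 16.5 CPM (SD, n = 3), a log2 fold change of 0.20 with an interval of -0.20 to 0.60. KMT2A had -0.28 ± 0.14 (SE), and the COMPASS enzymes SETD1A and SETD1B had -0.028 and -0.014. SETD7 and SMYD3 had 0.041 and 0.030. With replicates 1 and 2 only, KMT2D was at 0.0033, KMT2A at -0.11, SETD1A at -0.16 and SETD1B at -0.25. In that fit SETD7 and SMYD3 were at 0.22 and 0.16. No read was counted under the identifier of KMT2B in any library. A floor of 3 counts, the approximate 95% upper limit for a count of 0 from counting error alone, would be 0.235 to 0.279 CPM. Whether its reads were assigned to another identifier or dropped in the counting was not tested, so the limit holds for counted reads and no level or fold change can be given for the gene.

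PRDM16 was the only enzyme with all POU5F1B libraries above all GFP libraries. This PR-domain zinc finger protein (ENSG00000142611, chromosome 1, 2985732 to 3355185, GRCh37), described as an H3K9 methyltransferase and known from brown fat and stem cells, had 24, 31 and 27 counts across the GFP replicates, against 55, 53 and 55 with POU5F1B. In CPM these were 2.02, 2.36 and 2.35 against 4.33, 4.91 and 4.58. The level was low but even, and PRDM16 was 2.03-fold higher, or 1.02 ± 0.23 (SE) in log2, for which limma voom gave an adjusted p of 0.220. It passed the threshold with replicates 1 and 2 only (1.04, limma voom adjusted p = 0.0165) and without GFP replicate 3 (1.04, limma voom adjusted p = 0.0398).

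The other H3K9 writers overlapped between groups. SUV39H1 and EHMT1, which write H3K9me3 and H3K9me2, had log2 fold changes of 0.24 ± 0.14 and 0.16 ± 0.13 (SE), and EHMT2, SETDB1 and SUV39H2 had -0.20, -0.24 and -0.20. With replicates 1 and 2 only, EHMT2 was at -0.32 (limma voom adjusted p = 0.0410), SETDB1 at -0.23 and SUV39H2 at 0.10. SETDB2 had 115, 165 and 565 counts across the GFP replicates, against 180, 175 and 162 with POU5F1B, so that its log2 fold change of -0.30 ± 0.59 (SE) turned to 0.43 with replicates 1 and 2 only. DOT1L, the H3K79 writer, had 39.8, 36.2 and 49.4 CPM against 25.1, 19.2 and 39.5 CPM, with POU5F1B replicate 3 inside the GFP range (-0.62 ± 0.27 SE, limma voom adjusted p = 0.430). With replicates 1 and 2 only it was -0.79 (limma voom adjusted p = 0.00184). The H4K20 writers KMT5A, KMT5B and KMT5C had -0.056 ± 0.15, -0.42 ± 0.25 and 0.014 ± 0.33 (SE). With replicates 1 and 2 only, these 3 were at -0.020, -0.24 and 0.17.

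Levels were compared between genes as CPM per kb of the canonical transcript. Among erasers, KDM1A was the highest in GFP cells with 56.2 ± 9.69 CPM per kb (SD, n = 3), followed by KDM3B with 37.1 ± 4.49 and KDM2A with 30.1 ± 5.22, and KDM8 the lowest with 1.13 ± 0.028. The libraries of KDM3B and KDM2A overlapped. KDM7A was in place 6 of 15 in GFP cells with 9.30 ± 0.30 CPM per kb and in place 10 in POU5F1B cells with 4.96 ± 0.14. Among writers, SMYD2, EZH2 and NSD2 were the highest in GFP cells with 44.8 ± 2.37, 40.0 ± 0.77 and 37.4 ± 2.97 CPM per kb, and EZH2 and NSD2 did not differ beyond their spread. EZH2 was 29.8 ± 0.54 in POU5F1B cells, below NSD2 there. PRDM16 was the lowest writer with counts, with 0.26 CPM per kb in GFP and 0.53 in POU5F1B cells.

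Because replicate 3 of both groups stood apart, the fold change of replicates 1 and 2 was set against the difference of the replicate 3 libraries, a single library per group that allows no test. Both were below 0 for 18 of the 44 enzymes and above 0 for 6, and their signs were opposite for 20. Taken singly, 25 of 44 were below 0 in replicates 1 and 2 and 31 in replicate 3, against 7218 and 7068 of 14286 tested genes. The joint signs were not counted over all genes, so the 18, 6 and 20 are not read as particular to these enzymes. KDM7A was close in both, with -0.93 in replicates 1 and 2 and -0.89 in replicate 3. EZH2 (-0.42 and -0.45) and PRDM16 (1.04 and 0.92) were likewise close, whereas KDM5B had -0.91 and -0.077 and SETDB2 0.43 and -1.85.

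**Figure D3:**
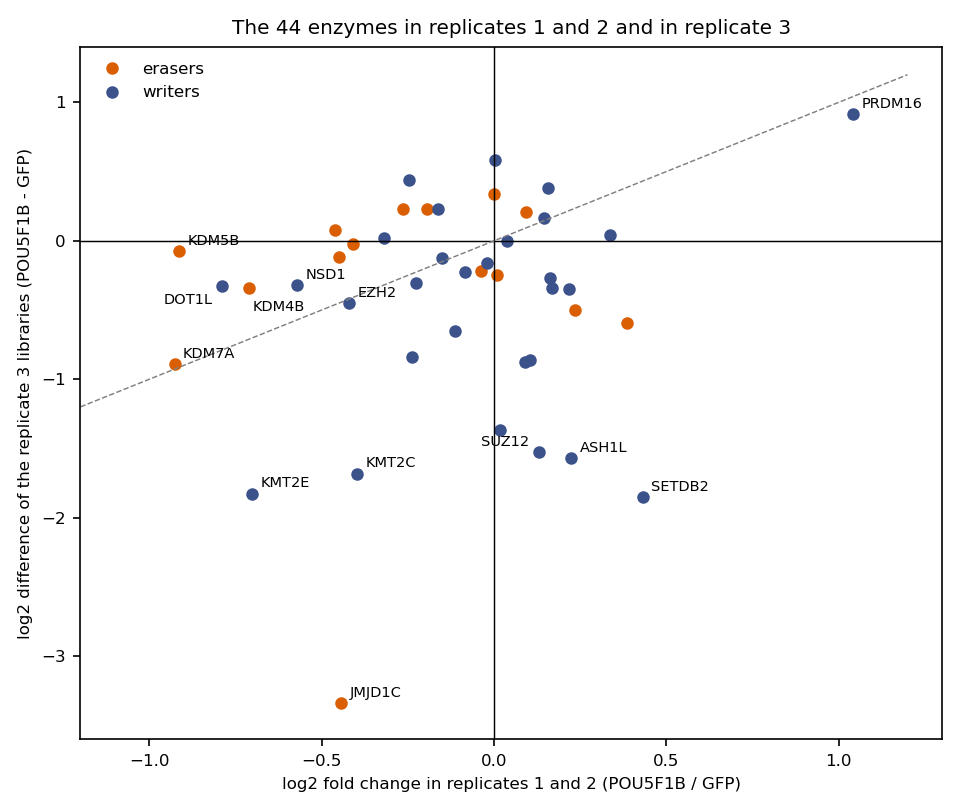
Each point is an enzyme, with its log2 fold change in replicates 1 and 2 on the x axis and the log2 CPM difference between the replicate 3 libraries (POU5F1B minus GFP) on the y axis, and the dashed line marks equal values. KDM7A, EZH2 and PRDM16 lie near the line, JMJD1C (-3.34 in replicate 3), KMT2E, KMT2C, SUZ12, ASH1L and SETDB2 far below it.

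GFP replicate 3 was the highest of the 6 libraries for 24 of the 44 enzymes, and exceeded the mean of GFP replicates 1 and 2 by more than 1 log2 unit for 7. The shares over all genes were not counted, so these counts are not read as a trait of the enzymes. The median excess of GFP replicate 3 was 0.20 for the enzymes, against 0.035 for all tested genes. This excess went with the GC content of the transcripts, with a Pearson r of -0.45 and a Spearman rho of -0.50 across the 44 enzymes, and with -0.37 and -0.43 across 14021 tested genes. These are descriptions across genes of the same libraries, and genes are not independent replicates. JMJD1C (2.62) and SETDB2 (2.14) had the largest excess, with GC contents of 40.2% and 40.3%. KDM7A (38.3% GC) and EZH2 (40.8%) had an excess of 0.049 and 0.041 at a like GC content. The part of GC content in the difference of KMT2E and KMT2C, which had an excess of 1.02 and 1.11, was not tested.

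**Figure D4:**
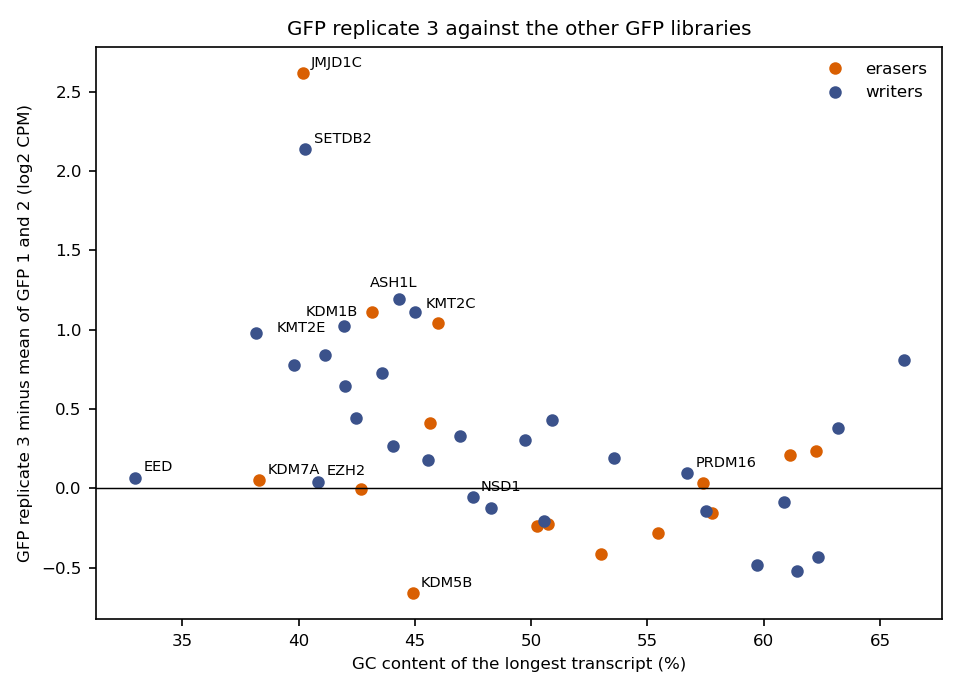
GC content of the longest transcript of each enzyme (%) against the log2 CPM of GFP replicate 3 minus the mean of GFP replicates 1 and 2. Genes of low GC content tend to lie above 0, up to 2.62 for JMJD1C, but KDM7A, EZH2 and EED lie near 0 and KDM5B at -0.66.

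All 4 enzymes on chromosome 7 (KDM7A, EZH2, KMT2C and KMT2E) and both on chromosome 5 (NSD1 and KDM3B) were among the 9 lower enzymes. On these chromosomes 19.9% (chromosome 7) and 19.3% (chromosome 5) of tested genes were lower in every POU5F1B library, against 9.24% of all genes. Such shares were not limited to these chromosomes. They were 20.5% on chromosome 14, which holds 0 of the enzymes, and 15.1% on chromosome 19, where KDM4B lies. Chromosomes 13 (13.4%), 3 (11.3%) and 8 (10.2%) were also above 9.24%. The medians of the neighbours of the enzymes on chromosomes 7 and 5 were also below 0. Of the 56 tested genes that start within 5 Mb of KDM7A, 16 (28.6%) were lower in every POU5F1B library and 2 were higher in every one, against 9.24% and 10.2% of all genes, and their median log2 fold change was -0.30. The median of neighbours was -0.33 around EZH2 (54 genes), -0.29 around KMT2C (64 genes, a window that overlaps that of EZH2), -0.25 around KMT2E (102 genes), and -0.26 around NSD1 and KDM3B (89 genes each). In this order, 24.1%, 31.2%, 29.4%, 29.2% and 30.3% of the neighbours were lower in every POU5F1B library. Higher in every one were 0, 0, 3, 0 and 4 genes. With all libraries, the values of EZH2 and KDM3B differed from their neighbours' medians by -0.092 and -0.016. That of NSD1 differed by -0.22, that of KMT2C by -0.52, that of KDM7A by -0.60 and that of KMT2E by -0.81. With replicates 1 and 2 only, the median of the 159 tested genes within 15 Mb of KDM7A was -0.41. In that fit KDM7A was at -0.93, and EZH2 and KMT2C, inside this window, were at -0.42 and -0.40. Around the lower erasers on other chromosomes the medians were 0.18 (KDM5B), 0.047 (KDM4A) and -0.065 (KDM4B). There 3.75%, 6.03% and 3.92% of the neighbours were lower in every POU5F1B library. Of the 44 enzymes, 7 had neighbours with a median under -0.2, and 6 of these were among the 9. The part of a shared regional change in the values of single enzymes was not tested.

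**Figure D5:**
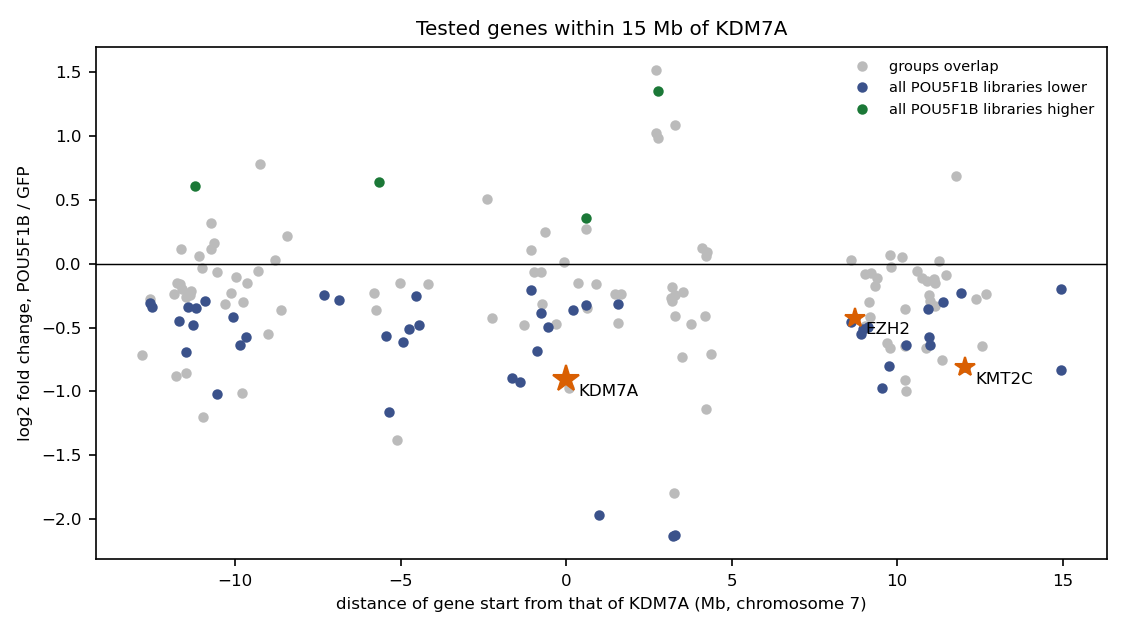
Log2 fold change (POU5F1B over GFP) of the 159 tested genes that start within 15 Mb of KDM7A on chromosome 7, by distance in Mb, with stars for KDM7A, EZH2 and KMT2C, blue where all POU5F1B libraries were lower and green where all were higher. The median of these genes is -0.30, 48 (30.2%) were lower and 4 higher in every POU5F1B library, and 15 of them lie below KDM7A.

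Partner proteins and other enzymes of the pathway were read from the same fit, and 0 of them passed the threshold. Among 18 tested lysine methylation enzymes outside the 45, 0 were lower and 3 higher at an unadjusted p under 0.05, with a median log2 fold change of -0.021, against 5.82% lower and 6.07% higher and a median of -0.023 for all genes. These shares are also the background of the partner counts that follow. SETD4 had 14.7, 14.9 and 17.2 CPM in GFP replicates 1, 2 and 3 against 22.2, 24.3 and 22.8 CPM in the POU5F1B libraries (0.57 ± 0.16 SE, limma voom adjusted p = 0.270). SMYD4 was at 0.39 ± 0.13 (SE) in log2, with an adjusted p of 0.340 from limma voom and no overlap between the groups.

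Of 7 tested PRC2 partners, 1 was lower at an unadjusted p under 0.05 and 0 were higher. It was JARID2, which helps to bring PRC2 to its targets, with 39.1, 38.5 and 28.8 CPM in GFP replicates 1, 2 and 3 against 25.2, 21.1 and 25.6 CPM in the POU5F1B libraries (-0.56 ± 0.18 SE, limma voom adjusted p = 0.333). Of 13 MLL and COMPASS partners, 0 passed in either direction, and the median was -0.082. Of 13 partners of CoREST and DOT1L, 2 were lower and 0 higher, with PHF21A, a CoREST subunit, at -0.34 ± 0.14 (SE, limma voom adjusted p = 0.419). Of 18 readers of methylated lysine, 1 was lower and 0 higher, a share of the lower close to the 5.82% of all genes, and 15 of 18 were below 0 with a median of -0.20, against 53.1% and -0.023 for all genes. The one was CBX2, a PRC1 subunit that reads H3K27me3, with 65.1, 65.6 and 49.2 CPM against 33.0, 28.5 and 48.8 CPM (-0.73 ± 0.23 SE, limma voom adjusted p = 0.316). The replicate 3 libraries almost met for CBX2, and replicates 1 and 2 alone gave -1.10.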

How the data were processed

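RNA was measured in 6 SW480 libraries, grouped and numbered from their titles. The authors deposited whole-number read counts per Ensembl gene, not normalized, after mapping to hg19 with hisat2 and counting uniquely mapped reads with featureCounts on genes and transposable elements. The kit was stranded, but how strand was set in counting, and which annotation release was used, are not given in the sources used here. From these counts, edgeR 4.0.16 kept 14286 genes (filterByExpr) and set TMM factors. Following the study's methods, the main test was limma voom (limma 3.58.1, R 4.3.3), and p-values were adjusted by Benjamini and Hochberg across those genes. Libraries held 10767947 to 12787637 counts, which limits low genes. Alternatives were edgeR, DESeq2 1.42.0, quality weights, other scalings and filters, a block by replicate number and fewer libraries. Log2 CPM used a prior count of 2. Intervals of fold changes are 95% intervals, and floors cover counting error only. Coordinates and canonical transcript lengths came from GENCODE on GRCh37, promoters from RefSeq. The tests were tested on simulated counts. The members and gene lists were chosen with earlier results of these data known. Named are KDM7A, members with an unadjusted p under 0.05 or groups that did not overlap, and the highest and lowest member per substrate, and partners that met both. Other members are given as values so that all are accounted for, and were named after their values were seen.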

Additional observations from a re-analysis of the deposited data

How the results depend on the processing

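The count of all genes past the threshold was 0 as reported and moved to 232 with DESeq2, 1077 with sample quality weights, 4 with at least 1 count in total, 1 with the replicate block and 1194 with replicates 1 and 2 only. It ranged from 0 to 595 when each library was left out, with 595 without GFP replicate 3 and 5 without POU5F1B replicate 3. The count of erasers past the threshold was 0 in each setting. That of writers was 1 with DESeq2 (KMT2E) and 1 with replicates 1 and 2 only (PRDM16), and 0 to 1 across the fits that left out a library. The eraser median was -0.26 with replicates 1 and 2 only and -0.21 to -0.067 across the fits without a library. The writer median was -0.054 with quality weights, 0.0033 with replicates 1 and 2 only and -0.26 to -0.076 without a library. KDM7A kept its direction in each setting, with -0.93 to -0.88 across the fits without a library. The cause of these moves was not tested.

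Among the enzymes chosen by the naming rule, direction changed for KDM2A with replicates 1 and 2 only (-0.0012), SETD1B with total counts (0.029) and with at least 10 counts in every sample (0.0089), ASH1L with quality weights (0.088) and replicates 1 and 2 only (0.22), KMT5A with quality weights (0.029), and KMT5C with edgeR (-0.054), DESeq2 (-0.046) and the block (-0.019). Across the fits without a library, ranges that crossed 0 were -0.15 to 0.038 for KDM1A, -0.029 to 0.23 for KDM2A, -0.20 to 0.038 for KDM2B, -0.19 to 0.10 for SETD1B, -0.085 to 0.18 for SETD7, -0.053 to 0.13 for EZH1, -0.59 to 0.018 for ASH1L, -0.15 to 0.034 for KMT5A and -0.26 to 0.27 for KMT5C. Of the other enzymes, direction changed for KDM1B and KDM4C with edgeR (-0.033 and -0.087) and DESeq2 (-0.022 and -0.078), for KDM4C with the block (-0.047), for SETDB2 and SUV39H2 with quality weights (0.30 and 0.051), and with replicates 1 and 2 only for KDM5A (0.0079), SETDB2 (0.43), SUV39H2 (0.10), SUZ12 (0.13), SETD2 (0.017) and NSD3 (0.090). For these others, further scalings, filters and most fits without a library were not tabulated.

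The labels do not say what a replicate number marks, and the numbers did not meet the criterion for pairing. Deviations from the group means of same-numbered libraries correlated across genes with r = 0.24, 0.088 and 0.16, and GFP replicate 2 correlated best with POU5F1B replicate 1 (0.25). Both replicate 3 libraries held LGR5 and ALB counts that the others lacked. With the replicate block KDM7A was at the same side of the threshold, and POU5F1B was the 1 gene that passed.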

Other observations

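Among the 44 enzymes, the 22 with a GC content under the median of 47.2% had a median excess of 0.68 in GFP replicate 3 over GFP replicates 1 and 2 in log2 CPM, and the 22 at or above it had -0.10. The median log2 fold change (POU5F1B over GFP) of the low-GC enzymes was -0.29 with all libraries and 0.013 with replicates 1 and 2 only. That of the high-GC enzymes was -0.051 and -0.18.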
